A study of Mus musculus with 2 samples.

Results

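The tumour suppressor gene Trp53 and 9 of its classic targets and partners (Mdm2, Mdm4, Ccng1, Sesn1, Sesn2, Trp53inp1, Gdf15, Plk2 and Btg2) were followed in NE4C cells, a line of neural stem cells from mouse. The 10 genes were chosen by symbol, and all 10 were found among the 16803 genes of the table. Total RNA was sequenced from untreated cells, labelled normal control, and from cells given homocysteine thiolactone (HTL), the reactive cyclic form of homocysteine that can modify lysine residues of proteins. The dose and time of HTL for these libraries are not given in the sources used here. There was 1 library in each group, with 10350665 reads for control and 9102076 for HTL treatment, so no value below has a replicate check and all intervals and tests cover counting error only.

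The p53 protein is a transcription factor that is stabilised when DNA is damaged or cells are stressed, and its targets stop the cell cycle, repair DNA, remove damaged cells or adjust metabolism. Mdm2 and Mdm4 hold p53 in check, and Mdm2 is itself a p53 target, which closes a feedback loop. The NE-4C line is known to have been established from the brain vesicles of mouse embryos without functional p53. That origin is background knowledge, and the labels give no p53 genotype. The deposited values are per gene and do not show which exons the reads came from. Several of these targets also respond to other regulators: Sesn2 and Gdf15 are known targets of the stress factors ATF4 and CHOP, and Plk2 and Btg2 are known as genes that respond rapidly to growth factors.

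Sites that match the full consensus of 20 bases bound by p53 were looked for within 2000 bases on either side of each gene's start (NCBIM37, GENCODE vM1), with at most 1 mismatch and no spacer. The consensus is its own reverse complement, so both strands were covered. Of 22367 protein-coding genes, 1.12% had such a site, and 3 of the 10 members (Ccng1, Mdm2 and Gdf15) did. The 4 sites are shown because they are the matches to the p53 consensus near these genes. Each is printed 5′ to 3′ on the gene's strand with the site in capitals and 5 bases on each side in lower case.
Ccng1, upstream: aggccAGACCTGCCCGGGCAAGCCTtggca
Ccng1, intron: ccggaACGCAAGCCCGGGCTAGTCTgcgcc
Mdm2, upstream: gaactGGGCAATTCCGGGCAAGTCCgggcc
Gdf15, exon: aggggTGACTTGCCTGAACTTGCCTtttct

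The Ccng1 sites lay at chr11:40568964-40568983 and chr11:40568438-40568457, starting at positions -170 and 356 relative to the gene's start. The Mdm2 site lay at chr10:117148726-117148745, at position -931, and the Gdf15 site at chr8:73155865-73155884, at position 471. All 3 genes are on the minus strand, and each site had 1 mismatch. A match is a description of the letters and not evidence of binding, and no match in this window says nothing about p53 at the other 7 genes. The 3 genes with a site did not share a direction: at the adjusted p alone Ccng1 was lower after HTL and Mdm2 was higher, while Gdf15 had a ratio above 0 that was not called.

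Trp53 itself was almost silent. Trp53 (gene ID 22059; NCBIM37 chromosome 11, 69393861 to 69405375, plus strand) drew 3 reads from the control culture and 7 from the treated culture, or 0.16 and 0.43 FPKM (reads scaled to transcript length and library size). These levels stood at percentile 16.3 and 26.7 of all genes in the respective library. A count of 0 would allow up to 3 reads, or 0.29 CPM (reads per 1000000 reads of the library) in control and 0.33 CPM after HTL, so the control value was at that limit. The log2 ratio of HTL treatment to control was 1.27 with a 95% exact Clopper-Pearson interval from -0.72 to 3.99, which spans 0. A difference in Trp53 was therefore not detectable at this depth.

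**Figure D1:**
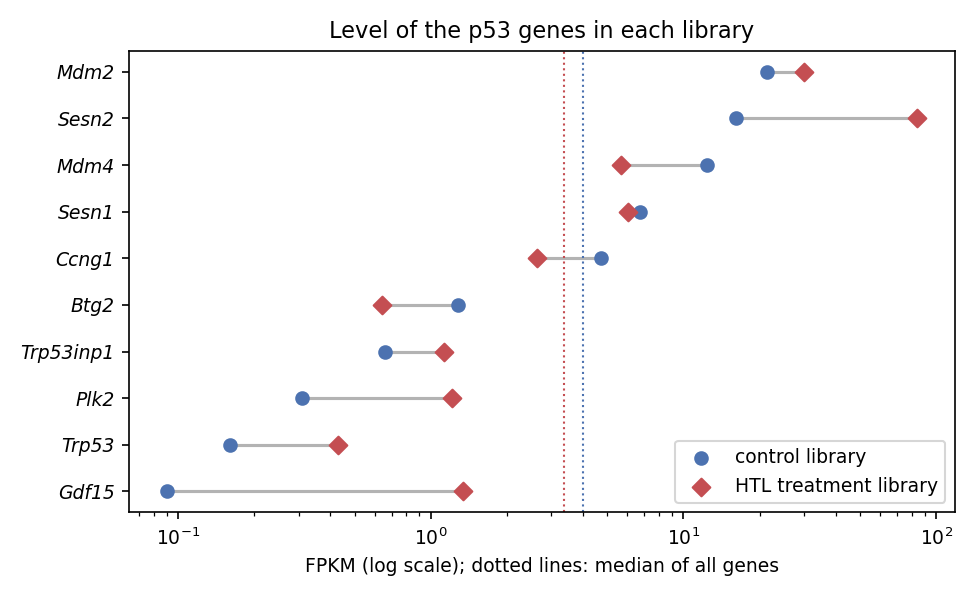
Level of each member in FPKM (x axis, log scale) in the control library (blue circles) and the HTL treatment library (red diamonds), 1 library each; dotted lines mark the median of all genes, 4 FPKM for control and 3.36 FPKM for HTL treatment. Trp53 sits at 0.16 and 0.43 FPKM, below both medians, and Sesn2 moves from 16.1 to 84.2 FPKM.

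The levels per transcript length spread widely among the members. These lengths were the deposited ones. They differed from the exonic bases of GENCODE vM1, as for Mdm4 (7187 against 3511) and Mdm2 (3084 against 5070). The orders and tests below rest on the deposited lengths. In the control library the order in FPKM ran from Mdm2 (21.4) through Sesn2 (16.1), Mdm4 (12.4), Sesn1 (6.70), Ccng1 (4.71), Btg2 (1.28), Trp53inp1 (0.66), Plk2 (0.31) and Trp53 (0.16) to Gdf15 (0.090). By an exact binomial test of reads per base within the library, adjusted over the 18 neighbouring pairs of both orders, Mdm2, Sesn2 and Mdm4 were each above the next (adjusted p no higher than 0.001), and so was Ccng1 above Btg2. Sesn1 and Ccng1 were not separated, and neither were the neighbours from Btg2 down to Gdf15. In the HTL treatment library the order was Sesn2 (84.2), Mdm2 (29.98), Sesn1 (6.05), Mdm4 (5.65), Ccng1 (2.64), Gdf15 (1.34), Plk2 (1.21), Trp53inp1 (1.13), Btg2 (0.64) and Trp53 (0.43). Sesn2 stood above Mdm2, Mdm2 above Sesn1, and Mdm4 above Ccng1, while no other neighbours differed by the same test. Thus 5 members were above 2 FPKM in both libraries and the other 5 were below it.

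The comparison of HTL treatment with control asked which members differed in level. Reads were compared by an exact binomial test, two-sided, in the 13442 genes that had 10 reads or more. Calls required the cutoffs of the study's methods, namely an adjusted p no higher than 0.001 together with a log2 ratio of 1 or more in either direction. Sesn2 and Plk2 were called higher, Mdm4 was called lower, and 7 members were not called. Over all genes tested 10.8% were called, 2.81% higher and 7.98% lower, so the members' 2 of 10 and 1 of 10 stand beside those shares as a description of a short list. At the adjusted p alone, Mdm2 was also higher and Ccng1 also lower, which made 3 members higher, where 14.5% of all genes passed, and 2 lower, where 24.1% passed. The median log2 ratio was 0.63 over the 10 members and -0.14 over all genes tested. The calls over all genes were 378 higher and 1072 lower when scaled to library totals, but 552 and 800 with TMM, 559 and 788 with the median of ratios, 498 and 860 with the upper quartile, and 556 and 740 when centred by transcript length. TMM raised the log2 ratios by 0.13 at the median.

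**Figure D2:**
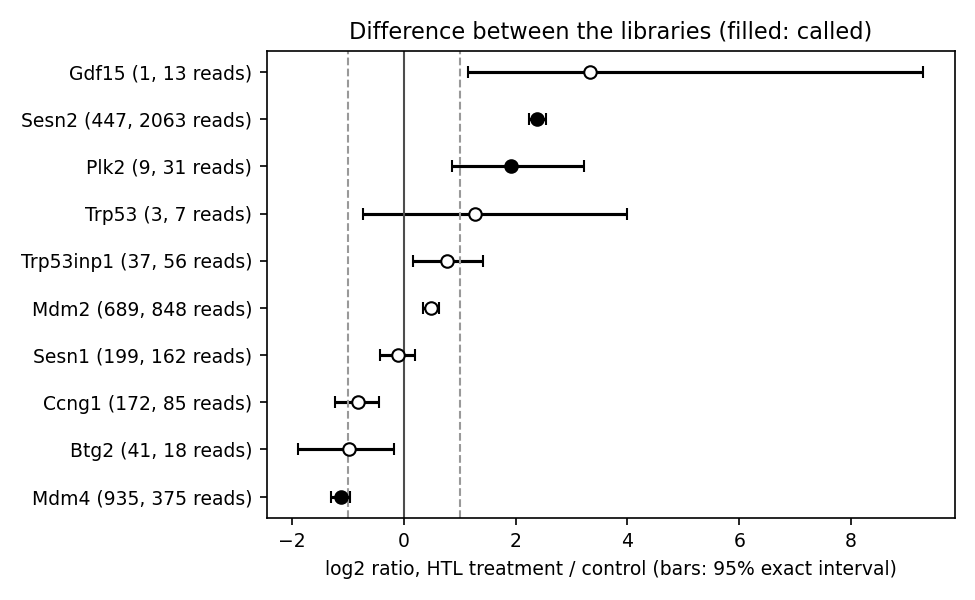
Log2 ratio of HTL treatment to control for each member (x axis), with bars for the 95% exact Clopper-Pearson interval, dashed lines at the cutoffs of -1 and 1, and the reads of control and HTL treatment beside each name; filled points are called. Sesn2 at 2.39 has a narrow interval, whereas Gdf15 at 3.32, with 1 and 13 reads, has the widest.

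Sesn2 showed the clearest difference. Sesn2 (gene ID 230784; chromosome 4, 132047947 to 132066416, minus strand) encodes sestrin 2, a leucine sensor that restrains the growth kinase complex mTORC1. It drew 447 reads from the control culture and 2063 from the treated culture, or 43.2 and 226.7 CPM. The level was 5.24-fold higher after HTL, a log2 ratio of 2.39 (95% interval 2.24 to 2.54), with an adjusted p of 5.19e-292 by the exact binomial test. Its place among all genes went from percentile 75.5 to 94.7 in FPKM. Among the settings run, this call ended only when the exact test of edgeR was given a coefficient of variation of 0.4 (adjusted p = 0.878).

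The sestrins are a family of 3 genes, and the other 2 did not move with Sesn2. Sesn1 (gene ID 140742; chromosome 10, 41530380 to 41628230, plus strand), a sestrin long known as a p53 target, had 199 control and 162 HTL reads. Its log2 ratio was -0.11 (-0.42 to 0.20), with an adjusted p of 0.587 by the exact test, and the ratio was above 0 under TMM, the median of ratios and centring by length. Sesn3, which is known as a target of the FoxO factors, had 306 control and 272 HTL reads and a log2 ratio of 0.016.

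Setting 2 genes against each other within the same libraries gives a difference that does not depend on scaling. An exact test of the 2 by 2 table of reads, with adjustment over 8 pairs, put the log2 ratio of Sesn2 above that of Sesn1 by 2.50 (2.16 to 2.85, adjusted p = 1.3e-47) and above that of Sesn3 by 2.38 (2.09 to 2.66, adjusted p = 8.72e-62). Sesn1 and Sesn3 differed by -0.13 (-0.52 to 0.27), an interval that spans 0.

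Mdm2 and Mdm4, the paired inhibitors of p53, had log2 ratios on opposite sides of 0, and of the pair Mdm4 was called. Mdm2 (gene ID 17246; chromosome 10, 117125944 to 117147814, minus strand), the E3 ubiquitin ligase that marks p53 for degradation, had 689 control and 848 HTL reads, or 66.6 and 93.2 CPM. Its log2 ratio was 0.48 (0.34 to 0.63), with an adjusted p of 2.99e-10 by the exact binomial test, and it stayed short of the cutoff of 1. With a coefficient of variation of 0.1 its adjusted p was 0.0853 by edgeR's exact test. Mdm2 was the only member with fractional estimated reads, 689.07 and 847.9 before rounding.

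Mdm4 (gene ID 17248; chromosome 1, 134886422 to 134921943, minus strand) encodes the relative of Mdm2 that blocks the activation domain of p53. It had 935 control and 375 HTL reads, or 90.3 and 41.2 CPM, which was 2.19-fold lower after HTL. The log2 ratio was -1.13 (-1.31 to -0.96), with an adjusted p of 9.74e-40 by the exact binomial test. The call was lost under the median of ratios (-0.995), when the ratio was centred on genes of similar length (-0.75), and with an assumed coefficient of variation of 0.2 (adjusted p = 0.105 by edgeR's exact test), but the direction held in every setting run. Its deposited transcript length of 7187 bases fell in the longest of 10 length bins, where the median log2 ratio was -0.38. The exons of Mdm4 in GENCODE vM1 cover 3511 bases, so this bin and the centred ratio rest on the deposited length. Between the pair, the log2 ratio of Mdm2 exceeded that of Mdm4 by 1.62 (1.39 to 1.85), with an adjusted p of 2.05e-46 by the exact test.

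**Figure D3:**
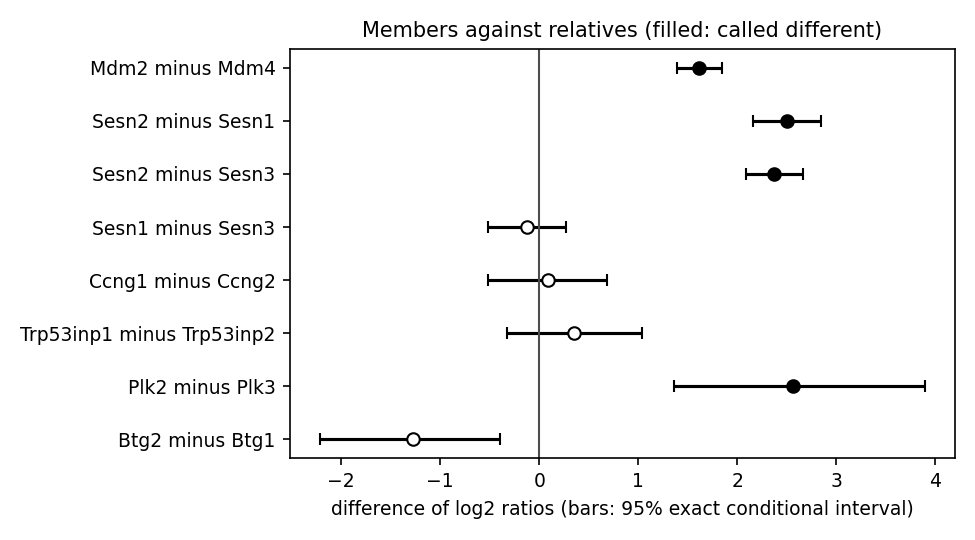
Difference of log2 ratios between a member and a relative (x axis) for 8 pairs, with bars for the 95% exact conditional interval; filled points had an adjusted p of at most 0.001. Mdm2 minus Mdm4, Sesn2 minus Sesn1, Sesn2 minus Sesn3 and Plk2 minus Plk3 lie between 1.62 and 2.56, 3 of the other 4 intervals span 0, and Btg2 minus Btg1 lies at -1.28.

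The growth regulators Ccng1 and Btg2 were at lower values after HTL. Ccng1 (gene ID 12450; chromosome 11, 40562054 to 40568813, minus strand) encodes cyclin G1, a p53 target that brings a phosphatase to Mdm2. It had 172 control and 85 HTL reads, a log2 ratio of -0.83 (-1.22 to -0.45) with an adjusted p of 3.42e-05 by the exact binomial test (0.016 by edgeR's with a coefficient of variation of 0.1), short of the cutoff of 1. Its relative Ccng2, known as a FoxO target, had 133 control and 62 HTL reads and a log2 ratio of -0.91. The 2 cyclins differed by 0.084 (-0.52 to 0.69) on the log2 scale, so neither direction of difference was resolved.

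Btg2 (gene ID 12227; chromosome 1, 135971747 to 135975697, minus strand), an antiproliferative gene that marks neural progenitors about to divide into neurons, had 41 control and 18 HTL reads. Its log2 ratio was -0.98 (-1.89 to -0.17), and the adjusted p was 0.025 by the exact binomial test, so it was not called. The adjusted p of that test was 0.062 with TMM and with the median of ratios. By edgeR's exact test with a coefficient of variation of 0.1 it was 0.085. Btg1, its closest relative, had 210 control and 224 HTL reads and a log2 ratio of 0.28. The difference of -1.28 (-2.21 to -0.39) had an adjusted p of 0.00526 by the exact test over the pairs and missed the threshold.

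Plk2 (gene ID 20620; chromosome 13, 111185252 to 111191052, plus strand), a polo-like kinase of centriole duplication and synapses, had 9 control and 31 HTL reads, or 0.87 and 3.41 CPM. The level was 3.75-fold higher after HTL, a log2 ratio of 1.91 (0.86 to 3.23), with an adjusted p of 0.00027 by the exact binomial test. It rests on few reads, and the call was lost with the ratio of FPKM + 1 (0.75) and at an assumed coefficient of variation of 0.1 (adjusted p = 0.00313 by edgeR's exact test). Plk3, which has been described alongside Plk2 as a stress-responsive polo-like kinase, had 131 control and 76 HTL reads and a log2 ratio of -0.60. The log2 ratio of Plk2 exceeded that of Plk3 by 2.56 (1.36 to 3.89, adjusted p = 5.54e-06 by the exact test).

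Gdf15 and Trp53inp1 were at low levels in both libraries. Gdf15 (gene ID 23886; chromosome 8, 73153292 to 73156355, minus strand), a secreted stress hormone of the TGF-beta family, had 1 control and 13 HTL reads, or 0.097 and 1.43 CPM. Its log2 ratio of 3.32 depends on the 0.5 read added and has an interval of 1.15 to 9.30. The adjusted p was 0.0014 by the exact binomial test, just short of the call, and TMM (adjusted p = 0.0006) and the median of ratios (adjusted p = 0.00059) moved it past the threshold. Trp53inp1 (gene ID 60599; chromosome 4, 11083578 to 11101526, plus strand), which encodes a stress-induced protein of autophagy and cell death, had 37 control and 56 HTL reads. Its log2 ratio of 0.77 (0.16 to 1.42) had an adjusted p of 0.024 by the exact test and was not called, and it did not differ resolvably from Trp53inp2 at 0.43 (difference 0.35, -0.32 to 1.04).

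The remaining relatives included the other p53 family genes. Of 12 relatives in the table, 11 were tested, and 0 were called by the exact binomial test or by edgeR's exact test with a coefficient of variation of 0.1, where 10.8% of all genes were called by the first. With TMM and the median of ratios, Btg3 was called higher (1.00 and 1.01, from 0.87). At the adjusted p alone 3 were higher and 3 lower, beside 14.5% and 24.1% of all genes, and 9 had an unadjusted p under 0.05, beside 60.2%. The median log2 ratio of those tested was 0.065. Trp73, which encodes the family member p73 that can bind the same DNA sites as p53, is named after its values were seen. It had 121 control and 53 HTL reads and a log2 ratio of -0.999, just short of the cutoff of 1, with an adjusted p of 4.11e-05 by the exact binomial test.

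A further 54 genes of the p53 pathway were grouped by role, and 46 of the 52 in the table had enough reads to be tested. Of these, 2 were called higher and 1 lower, or 6.52% against 10.8% of all genes. Their median log2 ratio was -0.018, and 23 ratios lay above 0 and 23 below. Among the 7 tested cell cycle arrest targets (median 0.18), Gadd45a was called. At the adjusted p alone 2 of the 7 were higher and 2 lower, beside 14.5% and 24.1% of all genes. Gadd45a, a growth arrest gene that is induced by DNA damage and by other stresses, had 19 control and 109 HTL reads and a log2 ratio of 2.67 (1.99 to 3.49). Cdkn1a, the cell cycle inhibitor p21 and the target most often used to read p53 activity, is named after its values were seen. It had 8 control and 16 HTL reads, and its interval of -0.12 to 2.62 around 1.13 spans 0.

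The 11 tested apoptosis targets had a median of -0.077, and Pidd1 was the gene called. At the adjusted p alone 1 of the 11 was higher and 1 lower. Pidd1, which assembles the platform that activates caspase 2, had 113 control and 27 HTL reads with its log2 ratio at -1.86 (-2.54 to -1.26). The 7 tested DNA repair targets held no call (0 by the exact binomial test and by edgeR's with a coefficient of variation of 0.1, with 1 lower at the adjusted p alone and 2 with an unadjusted p under 0.05), and their median was -0.25. Of the 9 tested metabolism and autophagy targets (median 0.48), Ephx1, a detoxifying epoxide hydrolase, was called higher with 61 control and 133 HTL reads and a log2 ratio of 1.30 (0.86 to 1.77). At the adjusted p alone 2 of the 9 were higher and 0 lower. Of the 12 regulators of p53 (median 0.029), 0 were called by the same 2 tests, while 2 were higher and 4 lower at the adjusted p alone and 11 had an unadjusted p under 0.05. Over all genes, the shares were 10.8% called, 14.5% higher and 24.1% lower at the adjusted p alone, and 60.2% at the unadjusted p.

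**Figure D4:**
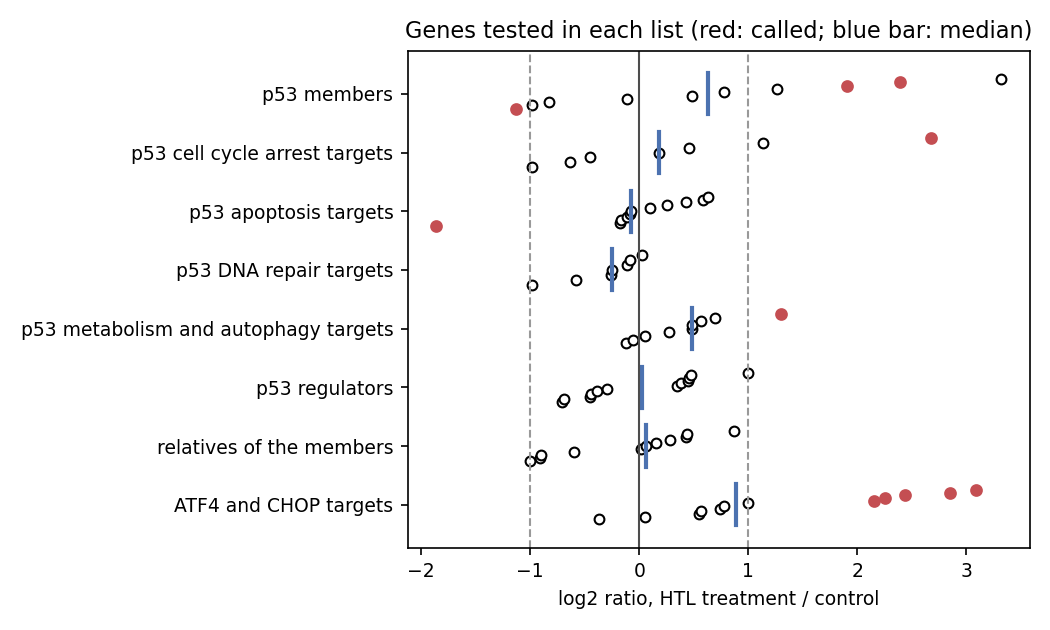
Log2 ratio of HTL treatment to control (x axis) for each gene tested, by list (y axis); red points are called, open points are not, and the blue bar is the list's median. The other p53 lists hold 3 called genes of 46 tested and the ATF4 and CHOP targets 5 of 12, beside 10.8% called over all genes. The lists were chosen with earlier results of these data known, and the difference between lists was not tested.

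Lists of the regulators that Sesn2, Gdf15, Plk2 and Btg2 share with other pathways were counted for comparison. Of 12 ATF4 and CHOP targets, 5 were called higher and 0 lower, where 2.81% and 7.98% of all genes were called, with a median log2 ratio of 0.89. At the adjusted p alone 10 were higher and 1 lower, beside 14.5% and 24.1% of all genes. The largest were the pseudokinase gene Trib3, with 173 control and 1297 HTL reads (log2 ratio 3.09, 2.86 to 3.33), and the stress gene Nupr1, with 15 and 98 reads (2.85, 2.10 to 3.78). Of 11 tested immediate early genes, 0 were called higher and 1, Ier3, was called lower with 128 control and 42 HTL reads (-1.41, -1.96 to -0.91), and the median was -0.17. At the adjusted p alone 2 immediate early genes were higher and 1 lower, beside the same 14.5% and 24.1%. These lists were chosen with earlier results of these data known, and their part in the values of the members was not tested.

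The labelled cell type was checked on its markers. All 10 neural stem cell markers were in the table, with a summed level of 193.5 FPKM for control and 138.5 FPKM for HTL treatment, and Hes5 and Fabp7 were under 10 reads. Of the 8 tested, 3 were called lower and 1 higher, beside 7.98% and 2.81% of all genes. Their median log2 ratio was -0.013, with 4 ratios above 0 and 4 below. Sox2, a transcription factor that maintains neural stem cells, had 894 control and 285 HTL reads (log2 ratio -1.46), Sox1 had 48 and 12 (-1.78), and the intermediate filament gene Vim had 1487 and 648 (-1.01). The receptor gene Notch1 had 124 and 231 reads (1.08). Of those not called, Nes was at -0.059, Msi1 at 0.033, Pax6 at 0.12 and Prom1 at 0.51, which passed at the adjusted p alone. The call of Sox1 was lost in edgeR's exact test with a coefficient of variation of 0.1 (adjusted p = 0.00189), and that of Vim was lost with TMM (-0.88), the median of ratios (-0.88) and the upper quartile (-0.92). These marker differences stood beside those of the members, and their part in the results was not tested.

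Markers of other cell types were also counted, and over all genes 2.81% were called higher and 7.98% lower. The sum of 6 neuron markers was 20.9 FPKM for control and 28.0 FPKM for HTL treatment, and the higher sum came from Tubb3 (16.3 and 24.8 FPKM), whereas 4 of the 6 ratios were below 0, the median was -0.67 and Dcx was called lower (88 and 29 reads, -1.40). The 3 astrocyte markers summed to 18.9 and 20.1 FPKM, with Gfap at 2 and 0 reads, Slc1a3 at 799 and 703, and Aldh1l1 called higher (21 and 56 reads, 1.58), a call lost in edgeR's exact test with a coefficient of variation of 0.1 (adjusted p = 0.00113). The 5 oligodendrocyte markers summed to 3.98 and 4.41 FPKM with 0 calls by the exact binomial test or edgeR's with a coefficient of variation of 0.1, and 1 unadjusted p under 0.05. Of these, 2 were at 0 reads in control and 1 after HTL. The 4 fibroblast markers summed to 5.64 and 13.9 FPKM, and 3 of the 4 ratios were above 0 with a median of 1.21. Thy1 was called higher (80 and 193 reads, 1.45), while the collagen genes Col1a1 and Col1a2 each had 12 and 25 reads (1.21, 0.20 to 2.37, not called) and Dcn had 16 and 13. The 3 immune cell markers summed to 2.10 and 1.38 FPKM, with Aif1 at 3 and 0 reads and Itgam at 3 and 6. The neuron, astrocyte, oligodendrocyte and fibroblast sums were thus higher after HTL, as Sesn2 was, and their part in that result was not tested. Fewer cells of a type and less RNA per cell cannot be told apart in such bulk samples.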

How the data were processed

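Total RNA of 1 control and 1 HTL treatment culture of NE4C was sequenced on a BGISEQ-500. The authors' methods describe mapping to the mouse genome and counting per gene with RSEM. The labels name build mm9 (NCBIM37), and the mapper, versions, annotation and use of strand are not given in the sources used here. The deposited estimated counts are not normalised, and in the FPKM columns the authors divided by transcript length and library size. The deposited log2 ratio, p-value and FDR columns of the authors hold their own comparison and were not used.

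Estimated counts were rounded and scaled to library totals. The exact conditional binomial test (scipy 1.17.1) was run where the 2 libraries summed to 10 reads or more, with Benjamini-Hochberg adjustment over all 13442, and 0.5 read was added for log2 ratios. Intervals are exact Clopper-Pearson. Without molecular identifiers, reads cannot be taken as independent molecules, and p-values speak of these 2 libraries and not of the conditions. A quasi-likelihood fit needs replicates and could not be made. Alternatives used TMM and the exact test of edgeR 4.0.16 and the size factors of DESeq2 1.42.0. The code was tested on simulated counts. Gene positions and sites came from NCBIM37 and GENCODE vM1, matched by symbol for all 10 members. No exon of a member in GENCODE vM1 overlapped an exon of another gene there. Overlaps in the annotation used for counting could not be checked. The members and the 15 gene lists were chosen with earlier results of these data known. Named genes are the members, the relatives that enter a pair, and up to 2 called rises and 2 called falls of each list. Outside this rule, Trp73, Btg3, Cdkn1a and the marker genes were named after their values were seen.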

Additional observations from a re-analysis of the deposited data

How the results depend on the processing

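No paired analysis was possible because each group had 1 library, and for the same reason none was left out. Under 14 alternatives, 117 of 135 values of single members kept their direction and their side of the call, 11 lost the call, 4 gained it and 3 changed sign. All 3 sign changes were of Sesn1, at 0.019 with TMM, 0.025 with the median of ratios and 0.059 when centred by length. The 2 members called higher became 1 (Sesn2) with a mean of at least 50 reads, where only 5 members could be tested, with the ratio of FPKM + 1, with an assumed coefficient of variation of 0.1 or 0.2, and with a log2 ratio of at least 2. They became 0 with a coefficient of variation of 0.4, and 3 (with Gdf15) under TMM, the median of ratios and an adjusted p of at most 0.05. The 1 member called lower became 0 with the median of ratios, centring by length, a coefficient of variation of 0.2 or 0.4 and a log2 ratio of at least 2, and 2 (with Ccng1) at 0.5. The count of 1450 genes became 816 with FPKM + 1, 120 and 6 with a coefficient of variation of 0.2 and 0.4, 3638 at a log2 ratio of at least 0.5 and 287 at 2. The error between cultures cannot be measured with 1 library per group. Adding 0.5 read to each table changed the direction of none of the 8 pair differences.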
